A study of Mus musculus with 22 samples.

Results

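CatSper and the SLO3 potassium channel are the main calcium and potassium channels of the sperm tail. The transcripts described here were those of 10 genes, found by symbol among the 17931 gene symbols of a read count table from whole mouse testes: the pore subunits Catsper1, Catsper2, Catsper3 and Catsper4, the auxiliary subunits Catsperb, Catsperd, Catsperg1 and Catsperg2, the potassium channel gene Kcnu1 and the proton channel gene Hvcn1. They were chosen by name, and all 10 passed the filter on low counts. RNA was compared between 3 wild-type (WT) males and 3 males lacking Mlx (MLXKO), all aged 7 months. MLX is a transcription factor that works with MondoA and ChREBP in the response to glucose. The MLXKO mice carry a constitutive homozygous deletion of the Mlx exons that encode the domain for dimerization and DNA binding, made with Meox2-Cre and then bred free of Cre, so the gene is missing from every cell type and not from germ cells alone. The males were age-matched littermates in 3 pairs, WT males had proven fertile, and replicate numbers 1 to 3 mark the pairs. In the text WT1 to WT3 and KO1 to KO3 are the libraries of those pairs.

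CatSper is a calcium channel of the principal piece of the sperm flagellum, opened by alkaline pH and by progesterone or other ligands in some species. Its pore is built of CATSPER1 to CATSPER4, and the auxiliary subunits beta, gamma, delta and others form a large extracellular cap. Calcium entry through it drives hyperactivated motility, which sperm need to penetrate the egg coat, and male mice lacking a pore subunit or the delta subunit are infertile. Kcnu1 encodes SLO3, which hyperpolarizes sperm during capacitation and is also required for male fertility. Hvcn1 encodes a voltage-gated proton channel that is prominent in human sperm and in leukocytes. Transcripts of these sperm channels are made by meiotic and haploid germ cells.

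The 6 libraries held between 16674678 and 19742726 counts. KO1 stood apart from KO2 and KO3, with a chi-square per degree of freedom of 7.91 and 7.92, against 2.66 between KO2 and KO3 and from 2.93 to 4.16 among WT libraries. The reads on Mlx itself numbered 128, 96 and 98 in the WT libraries and 94, 109 and 102 in those labelled KO, and its log2 fold change, abbreviated LFC, was -0.18 with an SE of 0.14 (adjusted p = 0.326). The count covers exons that the deletion left in place, and 385 exonic bases overlap Psmc3ip, so it does not check the genotype labels. Values below are CPM, read counts relative to the library total, after TMM scaling, which corrects that total after trimming genes with extreme ratios; means carry the SD over n = 3 libraries. The LFC sets MLXKO against WT, and a gene was called when edgeR gave it an adjusted p under 0.05.

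Catsperg1 and Catsperg2 both encode a gamma subunit, and their counts are shown with their sequences because reads cannot always be told apart between them. Catsperg1 lies at chr7:29181321-29214035 and Catsperg2 at chr7:29697219-29727032, both on the minus strand (mm10, GENCODE M21). Their coding sequences were 96.4% identical over 3435 aligned bases. Of all windows of 50 bases, the length of 1 read, 43.5% in Catsperg1 and 41.0% in Catsperg2 also occurred in the other gene. The first pair of 100-base coding stretches below, from position 124 of each coding sequence, had 0 mismatches. The second pair, from position 2360, had 19, written in capitals, with a longest identical run of 28 bases.
Catsperg1, fewest mismatches: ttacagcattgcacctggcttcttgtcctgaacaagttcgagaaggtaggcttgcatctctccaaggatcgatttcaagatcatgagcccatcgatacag
Catsperg2, fewest mismatches: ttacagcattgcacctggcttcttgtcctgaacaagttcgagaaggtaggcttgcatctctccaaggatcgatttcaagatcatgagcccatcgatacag
Catsperg1, most mismatches: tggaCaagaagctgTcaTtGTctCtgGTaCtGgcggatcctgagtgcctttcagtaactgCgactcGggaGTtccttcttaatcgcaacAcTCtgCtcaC
Catsperg2, most mismatches: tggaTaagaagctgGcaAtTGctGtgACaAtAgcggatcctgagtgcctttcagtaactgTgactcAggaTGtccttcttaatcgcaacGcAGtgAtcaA
A read from the first stretch fits both genes equally well, and how the authors' counting treated such reads is not given in the sources used here.

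Promoter windows from RefSeq (GRCm38.p6, from 250 bases before to 50 bases after a transcript start) were available for 6 of the 10 genes: Catsper2, Catsper3, Catsper4, Catsperb, Catsperd and Catsperg1. These 6 genes had 8 windows. The E-box CACGTG is a palindrome and the core of the sites that MLX dimers bind. It was found in 1 of the 8 windows, in Catsperd, and in 7.15% of all 32851 windows. The full cAMP response element TGACGTCA was in none of the 6 genes' windows and in 1.79% of all. Its core TGACG was searched on both strands and is contained in the full element. This core was found in 2 of the 8 windows, in Catsper2 and Catsperd, and in 20.8% of all windows. The stretch of the Catsperd window that holds the E-box and the TGACG cores is shown because these letters stood close together there. Capitals mark the E-box, which starts 113 bases before a RefSeq transcript start at position 56627047, and TGACG or its reverse complement CGTCA.
Catsperd, chr17:56626888-56626994, plus strand: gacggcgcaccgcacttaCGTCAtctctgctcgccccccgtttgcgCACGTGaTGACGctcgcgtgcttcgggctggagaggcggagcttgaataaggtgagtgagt
The GENCODE gene model of Catsperd starts further downstream, at position 56628143. A match of letters is not a measured binding site, and the ChIP-seq libraries of the study were not analysed here.

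Transcripts of both channels were modestly lower in MLXKO testes. All 8 Catsper genes and Kcnu1 were called lower, and Hvcn1 was not called. The 9 called genes stood at 76.1% to 89.4% of their WT mean, with LFC values from -0.39 for Catsper2 to -0.16 for Catsperd and a median of -0.22. The median over all 14640 genes tested was 0.03. In all 9, every MLXKO library lay below every WT library, so that each MLXKO littermate necessarily lay below its WT littermate. For reference, 20.6% of all genes tested were called lower, 24.8% were called higher, 25.9% had all MLXKO libraries below all WT libraries and 30.3% had them above. In whole tissue, fewer cells of a type and less RNA per cell cannot be told apart.

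The size of these changes depended on how libraries were scaled. Scaling by library size alone raised the LFC of the median gene by 0.14, to 0.16, and turned 3015 lower and 3634 higher calls into 1268 lower and 5343 higher ones. Under it all 9 LFC values remained below 0, from -0.25 to -0.02, but only Catsper1, Catsper2 and Catsperb were called lower, beside 8.66% of all genes. A change of scaling moves the LFC of all genes by nearly the same amount. For the 9 genes, LFC minus the median was therefore bound to stay nearly the same. It ran from -0.42 to -0.19 under TMM scaling and under library size alone.

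**Figure D1:**
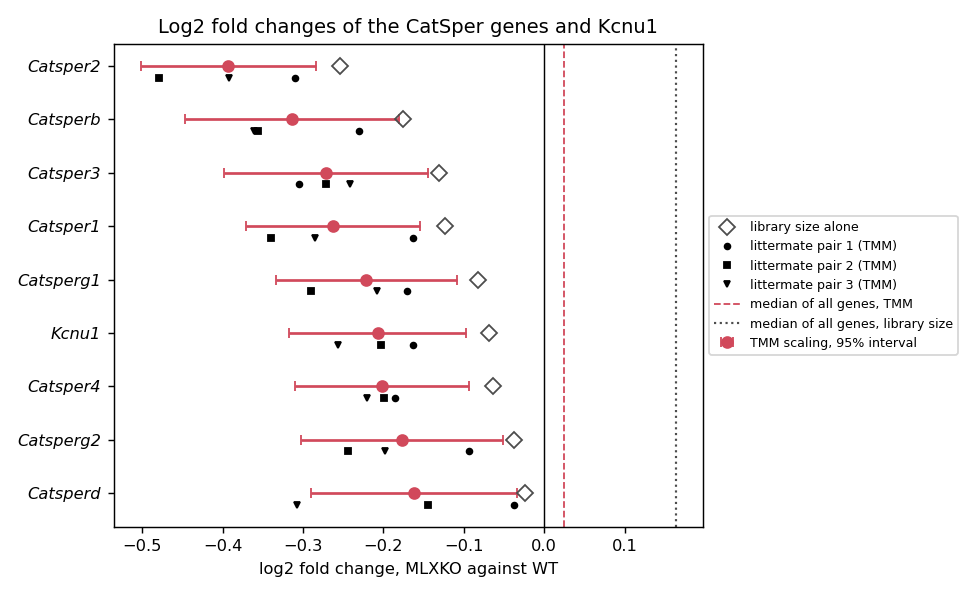
Log2 fold changes (x axis, MLXKO against WT) of the 8 Catsper genes and Kcnu1 (y axis): red circles with 95% intervals from edgeR under TMM scaling, small black symbols for the 3 littermate pairs, open diamonds for library size alone. All red intervals lie below 0, from Catsper2 at -0.39 to Catsperd at -0.16, and the diamonds sit to the right of the circles by about the distance between the vertical lines for the median gene, 0.03 and 0.16.

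Among the pore subunits, Catsper2 showed the largest decrease. Catsper2 (chr2:121392631-121413792, minus strand) stood at 388, 400.4 and 385 CPM in WT1, WT2 and WT3 and at 313, 287 and 293 CPM in KO1, KO2 and KO3. Its mean was 391 ± 8.30 CPM in WT and 298 ± 13.5 CPM in MLXKO (LFC -0.39, SE 0.050, adjusted p = 1.35e-04). The gap between the groups was several times their spread, and 5.50% of all genes tested had a lower LFC. Only 18 of its exonic bases overlap the neighbouring Pdia3, where the LFC was -0.04 (adjusted p = 0.508).

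Catsper1 (chr19:5335741-5344280), which encodes the pore subunit with a histidine-rich tail, had 149, 162 and 159.5 CPM in WT and 133, 128 and 131 CPM in MLXKO libraries, in the order of the pairs. Its LFC was -0.26 (SE 0.049, adjusted p = 0.00144), with pair values of -0.16, -0.34 and -0.29. Catsper3 (chr13:55784568-55808998) was the least counted pore gene, at 71.6, 78.0 and 74.9 CPM in WT and 58.0, 64.6 and 63.3 CPM in MLXKO. The Catsper3 LFC was -0.27 (SE 0.058, adjusted p = 0.00301), and its pairs agreed closely, between -0.31 and -0.24. Catsper4 (chr4:134211970-134227383) went from 142, 136 and 135 CPM in WT to 125, 119 and 116 CPM in MLXKO, with an LFC of -0.20 (SE 0.049, adjusted p = 0.00639) and pair values between -0.22 and -0.19. No group overlapped the other for any of these genes.

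The makeup of the pore transcripts was also compared within each library, a comparison that needs no library scaling. Per kb of exon, Catsper2 made up 47.5%, 47.3% and 46.9% of the summed pore transcripts in WT libraries and 45.8%, 43.8% and 44.4% in MLXKO libraries. Catsper4 made up 19.2%, 17.8% and 18.1% in WT and 20.1%, 20.0% and 19.3% in MLXKO. The Catsper1 share was 19.5% ± 0.606 in WT and 20.1% ± 0.203 in MLXKO, also without overlap. The groups overlapped for Catsper3, at 14.9% ± 0.381 and 15.4% ± 1.19. These shares were examined after the fold changes were seen and received no test.

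**Figure D2:**
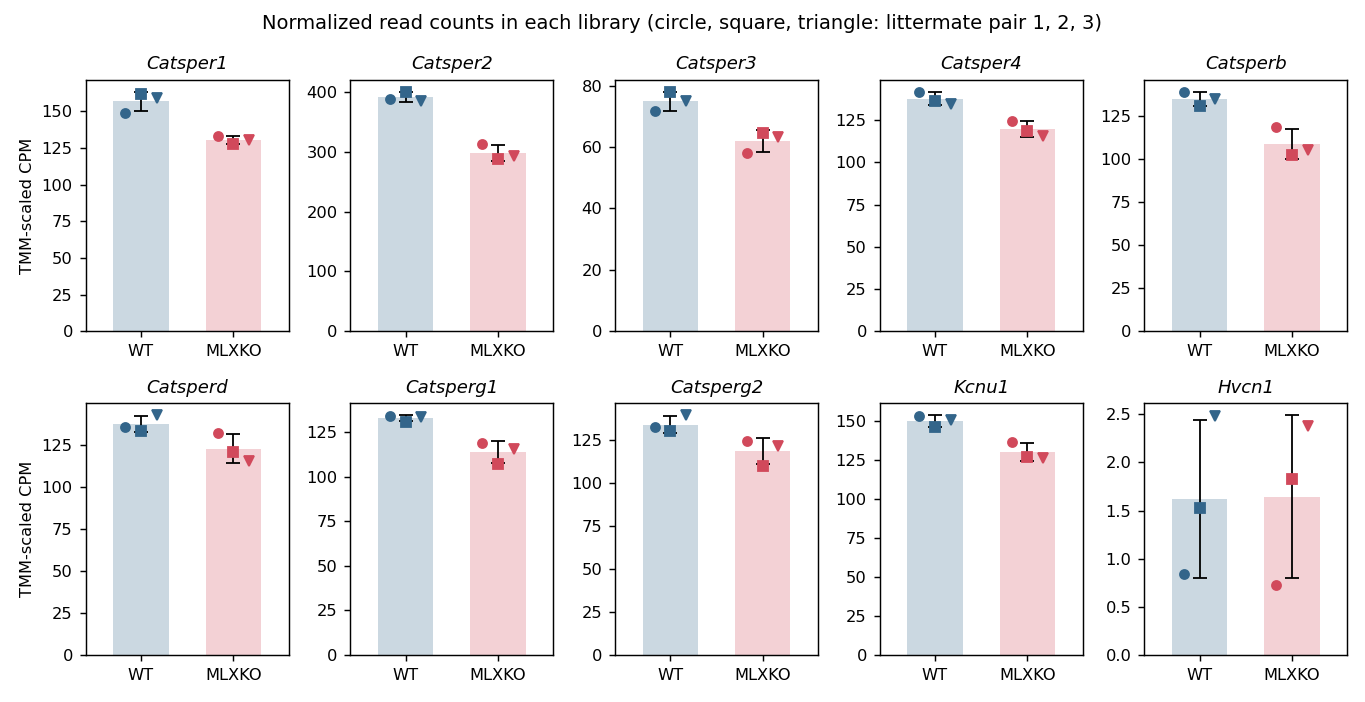
TMM-scaled CPM (y axis, from 0) in WT and MLXKO libraries for each of the 10 genes: bars are means, error bars SD over n = 3, and circles, squares and triangles mark littermate pairs 1, 2 and 3. In 9 panels every MLXKO point lies below every WT point, while Hvcn1, below 2.5 CPM, orders by pair and not by genotype.

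Among the auxiliary subunits, Catsperb was the most reduced. Catsperb (chr12:101404653-101626009), the beta subunit, had 139, 131 and 135 CPM in WT and 118, 102 and 105 CPM in MLXKO. Its LFC was -0.31 (SE 0.061, adjusted p = 0.00172). Of its 50-base windows, 14.6% were shared with the gene model Gm18795.

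Catsperd, the delta subunit, had the smallest change and the least stable call. It stood at 136, 133 and 143 CPM in WT and at 132, 121 and 115 CPM in MLXKO, so that KO1 lay only just below the lowest WT library. The LFC was -0.16 (SE 0.058, adjusted p = 0.0414), and its pairs ran from -0.04 in pair 1 to -0.31 in pair 3. With the pair as a block the adjusted p was 0.0445 in edgeR and 0.0575 in DESeq2. The call was lost with upper-quartile normalization (adjusted p = 0.0523) and without WT1 (0.0775), WT2 (0.0644), WT3 (0.136), KO2 (0.133) or KO3 (0.185). The LFC was -0.14 without KO2 and -0.11 without KO3.

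Both gamma subunit genes were called lower. How far reads that fit both genes made their values alike was not tested. Catsperg1 had 134, 131 and 133 CPM in WT and 119, 107 and 115 CPM in MLXKO (LFC -0.22, SE 0.051, adjusted p = 0.00485). Catsperg2 had 133, 130 and 139 CPM in WT and 124, 110 and 121 CPM in MLXKO (LFC -0.18, SE 0.057, adjusted p = 0.0257). The Catsperg2 call was lost without WT1 (adjusted p = 0.0538), WT3 (0.0943) or KO2 (0.132). With the counts of both genes summed, so that the assignment of a read to one or the other no longer matters, the LFC was -0.20 (adjusted p = 0.0106); reads that the counting dropped or counted for both genes would still be missing or doubled in the sum. The ratio of Catsperg2 to Catsperg1 counts was 0.991, 0.993 and 1.04 in WT and 1.05, 1.02 and 1.05 in MLXKO libraries. Its log2 differed by 0.04 between groups (exact permutation test, two-sided, p = 0.2, n = 3 against 3, where the smallest possible p is 0.1, so that the test could not pass the threshold of 0.05). The ratio was higher in the MLXKO littermate in 3 of 3 pairs, and the WT and MLXKO values overlapped.

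Kcnu1 (chr8:25849623-25937939), the pore of the sperm potassium channel, followed the CatSper genes. It stood at 153, 146 and 151 CPM in WT and at 137, 127 and 126 CPM in MLXKO, with means of 150 ± 3.66 and 130 ± 5.82 CPM. The LFC was -0.21 (SE 0.050, adjusted p = 0.00609), with pair values of -0.16, -0.20 and -0.26. None of its 50-base windows occurred in another gene. Its auxiliary subunit gene Lrrc52 had 27.6 CPM in WT and 27.8 CPM in MLXKO, with an LFC of 0.02 (SE 0.10, adjusted p = 0.917).

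Hvcn1 (chr5:122206804-122242297) stood apart from the other genes in level. Its reads numbered 16, 24 and 44 in WT libraries and 14, 33 and 45 in MLXKO libraries, or 0.844, 1.53 and 2.48 CPM against 0.722, 1.83 and 2.38 CPM. The groups overlapped fully, and the libraries of pair 1 were the lowest and those of pair 3 the highest in both genotypes. The LFC was 0.03 (SE 0.43, adjusted p = 0.967) with a 95% interval from -0.93 to 0.98, so that a decrease of the size seen in the CatSper genes was not detectable at this depth. Without single libraries the LFC ran from -0.34 to 0.49, and it was called under none of the alternatives. Of the Hvcn1 windows, 39.7% were shared with Tctn1, whose exons overlap 1574 bases of Hvcn1 on the opposite strand, and whether the counting used strand is not given in the sources used here. Tctn1 had 47.5 ± 0.523 CPM in WT and 42.4 ± 2.79 CPM in MLXKO (LFC -0.16, adjusted p = 0.0520). Among pan-leukocyte and lymphocyte genes, which mark cells that also use Hvcn1, 3 of 5 tested genes were called higher in MLXKO and 7 of the 12 listed genes had too few counts to test. Their summed level ranged from 9.91 to 14.2 CPM in WT and from 21.5 to 31.6 CPM in MLXKO. The defining B cell gene Cd79a was near 0, at 0, 0 and 1 reads in WT libraries and 3, 1 and 2 reads in MLXKO libraries. Their part in the Hvcn1 level was not tested.

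Levels were compared between genes per kb of exon, taken from the union of protein-coding transcripts. In WT, Catsper2 was highest at 174 ± 3.70 CPM per kb, followed by Catsper1 (71.7 ± 3.04) and Catsper4 (67.6 ± 1.83), whose libraries overlapped. Catsper3 (55.0 ± 2.32) and Catsperd (53.4 ± 1.85) overlapped as well. Below them came Kcnu1 (40.9 ± 0.999), Catsperb (36.3 ± 1.12), Catsperg2 (33.8 ± 1.21) and Catsperg1 (26.1 ± 0.316), without overlap between neighbours. Catsperb and Catsperg2 only just missed overlapping, with the lowest Catsperb library at 35.18 and the highest Catsperg2 library at 35.17. The gamma subunit order rests on annotated exon lengths of 5.08 kb for Catsperg1 and 3.96 kb for Catsperg2, since their CPM per gene hardly differed. Hvcn1 was far below, at 0.454 ± 0.231 CPM per kb. In MLXKO the order was the same except for neighbours whose libraries overlapped: Catsperd (47.8 ± 3.40) stood before Catsper3 (45.5 ± 2.58), and Catsperg2 (29.9 ± 1.95) before Catsperb (29.2 ± 2.35).

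**Figure D3:**
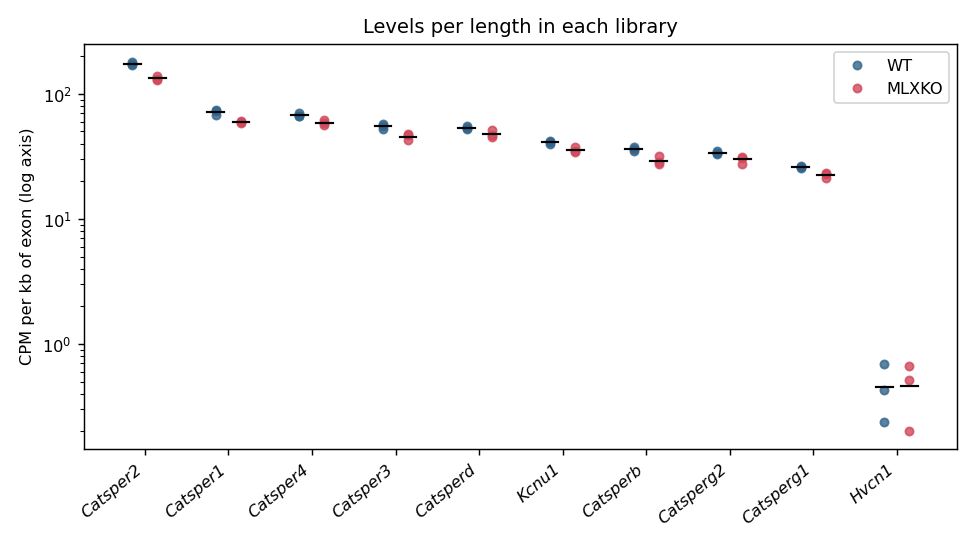
CPM per kb of exon (log y axis) in each WT (blue) and MLXKO (red) library, with genes ordered by their WT mean and black bars for means. Catsper2 leads at 174 in WT and 133 in MLXKO, the other CatSper genes and Kcnu1 have means between 22.4 and 71.7, and Hvcn1 lies below 1.

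Of 8 further genes of the CatSper complex, 5 had a row in the table. Of these, 4 were called lower, beside 20.6% of all genes tested. In the same list 0 were called higher and 1 was not called, with a median LFC of -0.22 over the 5. C2cd6, which encodes a protein needed to bring CatSper into the flagellum, showed a decrease with LFC -0.39 (SE 0.060, adjusted p = 0.000407), from 331 to 252 CPM. Slco6c1, the transporter-like component, went from 214 to 179 CPM (LFC -0.26, adjusted p = 0.00542), and Catsperz, the zeta subunit, from 288 to 247 CPM (LFC -0.22, adjusted p = 0.00435). Catsperz shares 445 exonic bases with Kcnk4. Efcab9, the calcium-sensing partner of the zeta subunit, went from 136 to 118 CPM (LFC -0.21, adjusted p = 0.0320) with overlapping groups, and its call was lost without WT1 (0.0946), WT2 (0.127), KO2 (0.106) or KO3 (0.143). Catspere2, an epsilon subunit, had 16.6 CPM in WT and 15.7 CPM in MLXKO (LFC -0.08, adjusted p = 0.454). Catspere1, Tmem249 and Tmem262 were not matched to a row.

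Of 15 partners in sperm ion transport and capacitation, 11 were called lower, beside 20.6% of all genes tested. In this list 0 were called higher and 4 were not called, with a median LFC of -0.23. The largest decreases were those of the fibrous sheath anchor Akap4 (3001 to 2122 CPM, LFC -0.50, adjusted p = 0.000199) and the sperm calcineurin subunit Ppp3r2 (553 to 417 CPM, LFC -0.41, adjusted p = 0.000404). Pkdrej, a polycystin family receptor of sperm, went from 102 to 79.7 CPM (LFC -0.36) and Atp1a4, the sperm sodium pump, from 1019 to 816 CPM (LFC -0.32). Slc26a8, an anion transporter, had an LFC of -0.29, and Slc9c1, the sperm-specific sodium-proton exchanger that alkalinizes the cytosol, one of -0.27. Akap3, Adcy10, Abhd2, Ppp3cc and Slc9b1 were the other called genes. The calls of Slc9b1, Adcy10 and Ppp3cc were each lost without WT2 (adjusted p = 0.0604, 0.0650 and 0.0660) or KO2 (0.0676, 0.0763 and 0.0601), and those of Slc9b1 and Adcy10 also without KO3 (0.0729 and 0.0700), and that of Slc9b1 without WT1 (0.0724). Cabyr was called lower without KO1 (0.0219) and under no other alternative run. Scaling by library size alone left 1 complex gene and 6 partners called lower, beside 8.66% of all genes tested. It called Atp2b4, a calcium pump, higher, as it did 5343 of all 14640 genes.

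**Figure D4:**
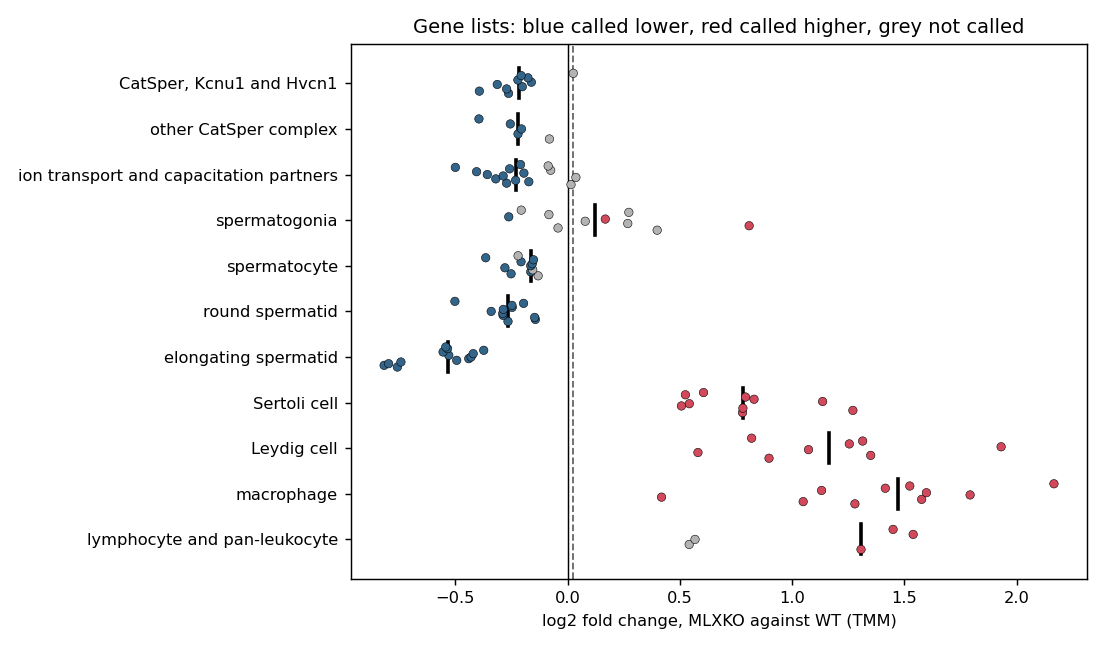
Log2 fold change (x axis, TMM scaling) of each tested gene, by list, with black bars for list medians, a solid line at 0 and a dashed line at the median of all genes, 0.03. The 10 channel genes have a median of -0.21 and the round spermatid list one of -0.27, above the elongating spermatid list at -0.53 and far below the Sertoli, Leydig and macrophage lists, whose medians are 0.78, 1.16 and 1.47.

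Under TMM scaling, markers of spermatids, and most of those of spermatocytes, were lower in MLXKO as the channel genes were. Markers of Sertoli cells, Leydig cells and macrophages were higher. All 11 round spermatid genes were called lower (median LFC -0.27, from -0.50 to -0.14), with a summed level of 2978 to 3048 CPM in WT and 2294.5 to 2499 CPM in MLXKO. All 13 elongating spermatid genes were called lower (median -0.53, from -0.82 to -0.37), at 26855 to 27829 CPM in WT and 16446 to 19942 CPM in MLXKO. Of 11 tested spermatocyte genes 8 were called lower (median -0.16), and of 10 tested spermatogonial genes 1 was called lower and 2 higher (median 0.12). All tested genes of the Sertoli cell (10), Leydig cell (8) and macrophage (10) lists were called higher. Among all genes tested, 20.6% were called lower and 24.8% higher. The calls of these lists under library size alone, which raised the LFC of the median gene by 0.14, are not given here. The summed levels of the Sertoli cell, Leydig cell and macrophage lists rose from at most 1166.5 to at least 1678 CPM, from at most 814 to at least 1748 CPM and from at most 89.1 to at least 181 CPM. No gene of these lists was at 0 in all libraries. The part of cell composition in the change of the channel genes was not tested.

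The CatSper genes and Kcnu1 were then set beside the germ cell lists within each library, where library scaling cancels. The mean log2 CPM of the 9 genes was 0.25 lower in MLXKO than in WT, against 0.27 for the round spermatid, 0.20 for the spermatocyte and 0.58 for the elongating spermatid list. The 9 genes minus the round spermatid list gave -0.38, -0.41 and -0.37 in WT and -0.36, -0.37 and -0.37 in MLXKO, a difference of 0.02 with overlapping groups. The 9 genes minus the spermatocyte list gave 0.36, 0.35 and 0.41 in WT and 0.35, 0.33 and 0.32 in MLXKO, a difference of -0.04. These groups only just missed overlapping, with WT2 at 0.35327 and KO1 at 0.35326. Minus the elongating spermatid list, the values were -3.22, -3.24 and -3.25 in WT and -3.01, -2.92 and -2.80 in MLXKO, without overlap. The last difference was 0.33 between the group means, and none of these was tested.

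**Figure D5:**
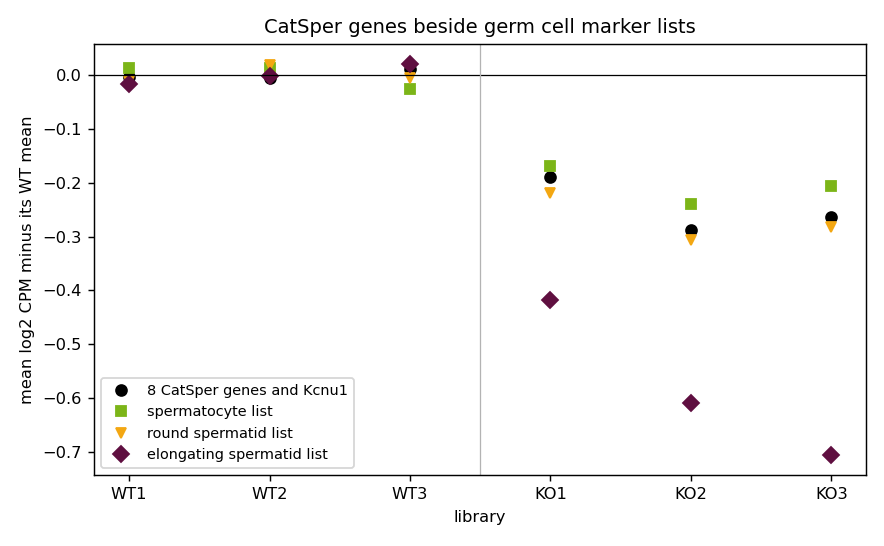
Mean log2 CPM of the 9 called genes and of 3 germ cell marker lists in each library (x axis), minus the WT mean of the same list (y axis). In all 3 MLXKO libraries the channel genes lie between the spermatocyte and round spermatid lists, and the elongating spermatid list lies 0.58 below WT on average.

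The 5 genes with the most similar pattern to the mean of the 8 Catsper genes over the 6 libraries were Tssk1, Smarcc2, Ssh2, Cdyl and 1700029P11Rik, with Pearson correlations from 0.998 to 0.999. Their LFC values ran from -0.35 to -0.26. Tssk1, a kinase of spermatids, is also in the round spermatid list. Such values are a description of 6 libraries in 2 groups: 1437 genes had a correlation over 0.95.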

How the data were processed

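RNA from whole testes of 3 WT and 3 MLXKO males was extracted with Trizol and sequenced as paired 50-base reads. The authors aligned reads to mm10 with TopHat and deposited whole-number read counts per gene symbol and library; the counting tool and annotation are not given in the sources used here. The deposited table also holds the authors' own comparison (means, fold changes, p-values), which was not used. Of 17933 rows, 2 repeated another. Where nothing else is stated, edgeR 4.0.16 in R 4.3.3 was used with its low-count filter (minimum 10), TMM scaling, a quasi-likelihood model of genotype alone, and p-values were adjusted by Benjamini-Hochberg over the 14640 genes tested. Log2 CPM used a prior count of 2. The members and gene lists were chosen with earlier results of these data known. All members are named with values; genes of other lists are named where called, with values for at most 6 per list. Exceptions, named after their values were seen, are Lrrc52, Catspere2, Cabyr, Atp2b4, Tctn1, Pdia3 and Cd79a.

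The titles and the paper give the libraries as littermate pairs. Deviations from the group means correlated at 0.145, 0.0363 and 0.121 within pairs and at most at 0.0330 between others. The pair as a block was an alternative, beside DESeq2 1.42.0, other scalings, other filters, summed gamma subunit counts and each library left out. Read sharing was measured on GENCODE M21 protein-coding transcripts, and promoters came from RefSeq. The code was tested on simulated data.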

Additional observations from a re-analysis of the deposited data

How the results depend on the processing

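Library size alone moved counts of calls by more than 1.5 times. It left 3 of the 10 genes, 1 further CatSper complex gene and 6 partners called lower, beside 8.66% of all genes tested. It called 1 partner, Atp2b4, higher, beside 5343 of all 14640 genes. Upper-quartile normalization left 8 of the 10 genes called lower, Catsperd being the call lost, beside 2900 of all 14640 genes. With each library left out in turn, 7 to 9 of the 10 genes, 3 to 4 complex genes and 8 to 12 partners were called lower, and 0 of each were called higher. In these runs the calls lower among all genes ranged from 2134 of 14784 without KO2 to 3405 of 14787 without KO1. With the replicate block in edgeR, 9 of the 10 genes, 4 complex genes and 11 partners were called lower, beside 3007 of all 14640 genes. In DESeq2 with the replicate block these counts were 8, 4 and 11, Catsperd being the call lost, beside 2386 of 15150 genes with an adjusted p. The block changed no other call among the 10 genes. Catsper1, Catsper2 and Catsperb were called lower under all 15 alternatives each, with LFC values from -0.30 to -0.12, from -0.43 to -0.25 and from -0.38 to -0.18. Catsper3, Catsper4, Catsperg1 and Kcnu1 lost their call under library size alone and under no other alternative run, while Catsperd and Catsperg2 lost theirs there and under others.

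The Hvcn1 LFC changed sign to -0.0011 with DESeq2 size factors in edgeR, to -0.0075 with DESeq2, to -0.029 with DESeq2 and the replicate block, and to -0.30, -0.010, -0.051 and -0.34 without WT1, WT2, KO2 and KO3. The Hvcn1 range without single libraries was -0.34 to 0.49. The log2 ratio of Catsperg2 to Catsperg1 counts differed by 0.03 to 0.07 with each library left out, and by a mean of 0.04 (SD 0.03) over the 3 pairs with the replicate block.

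Reads shared by paralogs or antisense neighbours limit Catsperg1, Catsperg2 and Hvcn1. The Hvcn1 interval was wide, with 14 to 45 counts that differed between libraries of the same genotype.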
